A study of Drosophila melanogaster with 2 samples.

Results

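Head-to-head shared promoters are stretches of DNA from which 2 neighbouring genes are transcribed outwards, 1 on each strand, so that their transcription start sites (TSSs) lie back to back. Peaks of Aristaless at such promoters were taken from the series' thresholded peak list. A peak was a member when its summit lay within 500 bp of a minus-strand TSS and of a plus-strand TSS of 2 different protein-coding genes, with the minus-strand TSS at the lower coordinate. This held for 772 of the 3822 peaks on the 7 chromosome arms (20.2%; 95% Wilson interval 18.96 to 21.5%). No signal value was used to choose them. The thresholded list of replicate 1 alone held 652 such peaks of 2982, and that of replicate 2 alone held 532 of 2090.

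The data are transcription factor ChIP-seq from Drosophila melanogaster. Both libraries came from the strain al-GFP, which carries an insertion targeting al and makes an Aristaless protein fused to eGFP, and an anti-GFP antibody was used to pull down the chromatin. The material was whole embryos collected from 0 to 24 h of age, so every tissue and stage of embryogenesis was mixed, and the lists do not say which cells gave a peak. There is 1 group with 2 biological replicates and no mutant, untagged or untreated group, and possible control libraries that the labels name were not analysed here.

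Aristaless is a paired-class homeodomain protein, known for patterning the distal parts of legs, antennae and wings in the fly. Homeodomains of this class bind short AT-rich sites built on the core TAATTA. Divergent gene pairs are common in the compact genome of Drosophila, where they often join broadly expressed genes of basic cell functions. Their promoters are known for the DNA replication-related element (DRE), TATCGATA, bound by the factor DREF, and for the core CGATA bound by the insulator protein BEAF-32, whereas the GAGA factor is better known from promoters of regulated developmental genes.

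The DNA between the 2 TSSs is shown for the 6 strongest members that met a rule on TSS distance (40 to 250 bp), because in most members this stretch holds the summit. A seventh, Atat/Shc, was added after its values were seen, since it is the strongest one shown here with a DRE. All are read 5′ to 3′ on the plus strand of the release 6 genome from RefSeq, from the base after the minus-strand TSS to the base before the plus-strand TSS. Capitals mark these letters on either strand, while other letters that were searched, such as the TATA box, are left unmarked: the DRE (TATCGATA), the BEAF-32 core (CGATA, or TATCG on the other strand), the homeodomain core (TAATTA) and an E-box (CAGCTG).
Tcs5/CHMP2B (chr3L:5139396-5139618, plus strand): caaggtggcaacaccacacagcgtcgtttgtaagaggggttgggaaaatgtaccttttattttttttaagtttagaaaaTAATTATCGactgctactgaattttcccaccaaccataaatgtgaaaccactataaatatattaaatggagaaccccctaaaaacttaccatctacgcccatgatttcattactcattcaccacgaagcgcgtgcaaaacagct
CG7601/CIA30 (chr3R:29736746-29736964, plus strand): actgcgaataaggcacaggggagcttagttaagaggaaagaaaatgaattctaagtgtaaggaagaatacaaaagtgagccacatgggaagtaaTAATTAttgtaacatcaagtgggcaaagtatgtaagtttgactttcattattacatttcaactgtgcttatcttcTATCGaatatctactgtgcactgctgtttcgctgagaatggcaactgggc
Chro/Ssl1 (chr3L:22878985-22879088, plus strand): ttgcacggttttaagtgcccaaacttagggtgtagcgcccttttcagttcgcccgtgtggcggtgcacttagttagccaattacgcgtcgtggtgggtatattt
CG13390/CG17294 (chr2L:8376798-8377034, plus strand): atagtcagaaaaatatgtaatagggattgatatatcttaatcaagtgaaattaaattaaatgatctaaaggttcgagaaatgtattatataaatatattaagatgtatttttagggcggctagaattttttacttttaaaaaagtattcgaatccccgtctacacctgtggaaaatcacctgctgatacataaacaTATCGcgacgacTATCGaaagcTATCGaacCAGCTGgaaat
mRpL23/CG9004 (chr3L:2373679-2373727, plus strand): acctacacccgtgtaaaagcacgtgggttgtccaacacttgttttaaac
Mnat9/CG1792 (chr3R:31616161-31616302, plus strand): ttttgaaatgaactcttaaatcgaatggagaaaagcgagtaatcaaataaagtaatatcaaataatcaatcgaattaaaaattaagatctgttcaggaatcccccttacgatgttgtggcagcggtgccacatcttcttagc
Atat/Shc (chr3L:9426759-9427009, plus strand): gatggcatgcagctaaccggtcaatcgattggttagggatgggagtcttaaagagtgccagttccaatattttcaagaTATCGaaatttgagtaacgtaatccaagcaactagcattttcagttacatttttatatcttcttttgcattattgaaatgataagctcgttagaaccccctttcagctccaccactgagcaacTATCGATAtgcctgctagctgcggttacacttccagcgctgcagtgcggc
The first 2 of these each hold 1 homeodomain core, and in Tcs5/CHMP2B it runs into a BEAF-32 core, so that the capitals form 1 block. Atat/Shc holds the DRE, which itself contains the BEAF-32 core on both strands. CG13390/CG17294 holds 3 BEAF-32 cores beside its plus-strand TSS. The intervals of Chro/Ssl1, mRpL23/CG9004 and Mnat9/CG1792 hold none of the marked letters. In Chro/Ssl1 and mRpL23/CG9004 the summit lies outside the interval, 83 and 80 bp into the minus-strand gene.

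The strongest members joined genes of quite different functions. The deposited signal is the authors' enrichment value per peak, on a scale that no source used here states, and it serves to rank peaks within a list. The strongest member lay between Tcs5, a kinase of the complex that modifies transfer RNAs, and CHMP2B, a subunit of the ESCRT-III membrane remodelling complex. Its signal was 1571.6 in the series' list, with 927.2 in replicate 1 and 665.7 in replicate 2. The peak between CG7601 and CIA30, which assembles mitochondrial complex I, had 1463.6, with 822.8 in replicate 1 and 657.3 in replicate 2. The peak between CG5611 and Mtl had 1342.0, with 734.0 and 592.8 in replicates 1 and 2. In all of these the summit stood between the TSSs and replicate 1 was the higher of the replicates.

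The fourth, at Pex11ab, a peroxisome division gene, and CG8320, had a signal of 1249.8 (replicate 1 709.8, replicate 2 547.2). Its TSSs are only 33 bp apart, and the summit lay 96 bp inside CG8320. The fifth stood between Art3, an arginine methyltransferase gene, and mRpS10, a mitochondrial ribosomal protein gene, at 1230.5 (replicate 1 722.4, replicate 2 516.6). The sixth was the Atat/Shc peak at 1230.0 (replicate 1 668.2, replicate 2 569.4). Atat encodes the acetyltransferase of alpha-tubulin and Shc an adaptor of receptor tyrosine kinases.

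The seventh joined mRpS23, another mitochondrial ribosomal protein gene, to CenG1A, at 1130.1 (replicate 1 677.2, replicate 2 461.9). The eighth joined Chro, whose chromodomain protein binds the interbands of polytene chromosomes, to Ssl1, a subunit of TFIIH, at 1082.6 (replicate 1 619.9, replicate 2 467.0). The ninth, CG13390/CG17294, had 1058.1 (replicate 1 651.0, replicate 2 410.2), and the tenth, mRpL23/CG9004, had 1035.9 (replicate 1 572.7, replicate 2 464.9). So 3 of the 10 hold a gene of the mitochondrial ribosome. Of all 1523 paired genes with a summit at their shared promoter, 25 were genes of the mitochondrial ribosome. The median signal of these 25 was 95.1, against 113.6 over all paired genes with a summit. All 10 of the strongest members were in both replicates' thresholded lists, replicate 1 was higher in 10 of 10, and 7 of the 10 summits lay between the TSSs.

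Strong peaks stood at head-to-head promoters, and at promoters in general, more often than weak ones. Members made up 27.5% of the strongest 25% of the list by signal (263 of 955), 21.6% of the next 25%, 19.7% of the third and 12.02% of the weakest 25%. The Wilson interval was 24.8 to 30.5% in the strongest part and 10.1 to 14.2% in the weakest. The same order from strongest to weakest held at its ends in each replicate's own list, with 27.3% against 16.7% in replicate 1 and 29.3% against 20.8% in replicate 2. Peaks near the promoter of a single gene followed the same direction, with 32.98% of the strongest 25% and 24.97% of the weakest, while peaks with no promoter went the other way, with 38.2% and 61.65%. Of the 100 strongest peaks 29 were members and 42 were at single-gene promoters. Intervals here and below cover counting error over peaks only, and no test of the trend was made.

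**Figure D1:**
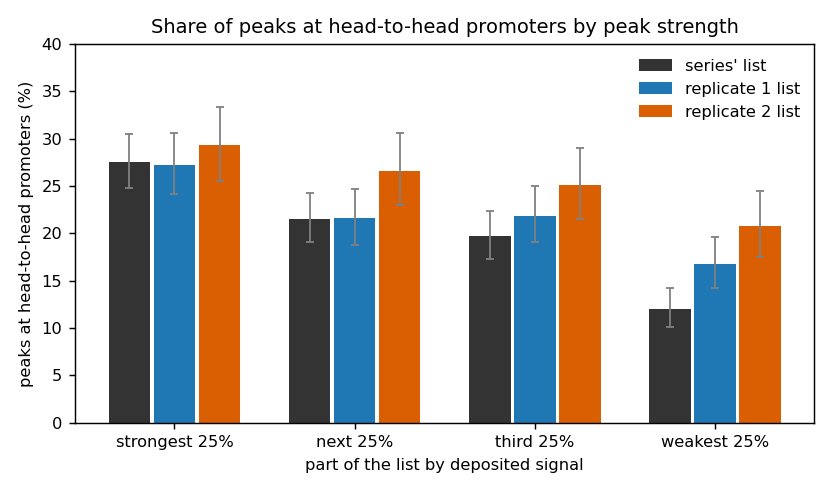
Share of peaks at head-to-head promoters (y axis, percent) in a peak list cut into 4 equal parts by deposited signal (x axis), for the series' list and the list of each replicate; error bars are 95% Wilson intervals. In the series' list the share is 27.5% in the strongest part and 12.02% in the weakest.

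The median signal of the members was 108.0, with quartiles at 73.8 and 188.3 and extremes of 2.44 and 1571.6. At the 1140 peaks near the promoter of 1 gene it was 94.8, a ratio of 1.14, and at the 1864 peaks with no promoter within 500 bp it was 81.8, a ratio of 1.32. The ratio to the single-gene promoters was smaller within each replicate's own list, at 1.06 in replicate 1 and 1.01 in replicate 2 (mean 1.04 ± 0.0307, SD, n = 2). Against only the 970 peaks upstream of a single gene the ratios were 1.09, 1.03 in replicate 1 and 0.982 in replicate 2, so with this comparison the direction turned in replicate 2. What did hold in all 3 lists was a higher median at members than at peaks with no promoter, by 1.32, 1.15 in replicate 1 and 1.14 in replicate 2. Among the authors' q values, 14.6% of members were above 0.05, against 20.6% of the single-gene promoter peaks and 31.2% of those with no promoter.

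Members were found in both replicates more often than other peaks. Of the 772 members, 479 overlapped a peak of both replicates' thresholded lists by at least 1 bp (62.0%; interval 58.6 to 65.4%). The share was 49.7% at single-gene promoters (46.8 to 52.6%) and 40.6% at peaks with no promoter (38.4 to 42.8%). Replicate 1's list alone held 145 members, replicate 2's alone 48, and 100 (13.0%) were in neither, although the series' list made from both replicates holds them. The share in both lists followed strength, with 99.5% in the strongest 25% of members, 93.8% in the second, 45.6% in the third and 9.33% in the weakest. The median signal of members was also higher than that of the peaks they were set against, and the part of strength in the difference between the groups was not tested.

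At 711 members each replicate's ranked list gave a signal, and both replicates ordered the members much alike. Pearson's r of log2 signal was 0.868 over the 711 peaks, as a description, since both replicates share the strain, the antibody and the processing. Replicate 1 was higher at 613 of them (86.2%), with a median log2 ratio of replicate 1 over replicate 2 of 0.53 (quartiles 0.19 and 0.82). At the peaks with no promoter the median ratio was 0.63, so the offset between replicates was not limited to the members. Replicate 1 exceeded replicate 2 by more than 2-fold at 107 members and the reverse held at 3.

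**Figure D2:**
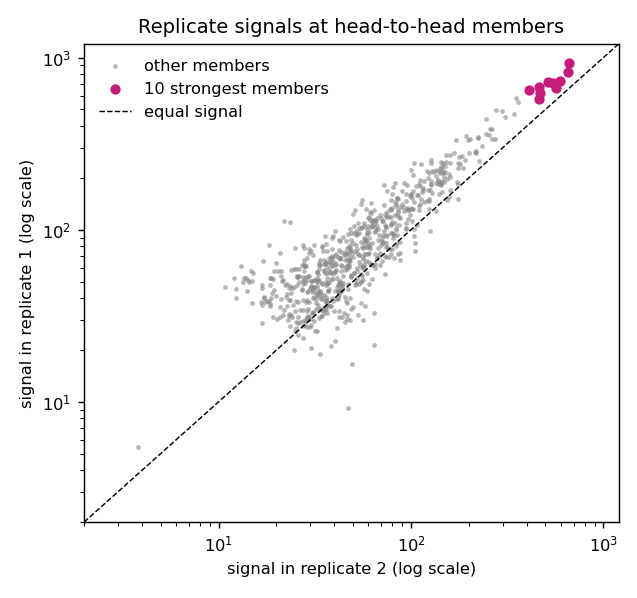
Deposited signal of each member in replicate 1 (y axis) against replicate 2 (x axis), both on log scales, for the 711 members with a value in each; pink points are the 10 strongest and the dashed line marks equal signal. Replicate 1 is higher at 613 of the 711, and at all of the 10 strongest.

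Within the strongest 25% of members, the replicates differed most at CG10584/Polr3E, where Polr3E encodes a subunit of RNA polymerase III. Its signal was 148.5 in replicate 1 and 55.7 in replicate 2, a log2 ratio of 1.42. CG14435/Tmf, of which Tmf encodes a golgin, had 140.9 in replicate 1 and 54.8 in replicate 2. The peak of 140up and Polr2B, the second-largest subunit of RNA polymerase II, had 182.6 in replicate 1 and 72.3 in replicate 2. Replicate 1 was also the higher at CG14968/ZnT63C, with a zinc transporter gene (244.7 and 103.5 in replicates 1 and 2), and at wda/Pex11c, with a gene of the SAGA complex (142.9 and 62.3). All 5 peaks were in both replicates' lists.

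Most summits lay between the 2 TSSs, which follows in part from the rule. A member with TSSs more than 500 bp apart must have its summit between them, and there were 80 of these. Of the 772, 653 lay between the TSSs (84.6%; interval 81.9 to 87.0%; 83.9% in replicate 1's list and 85.7% in replicate 2's). The peak itself covered both TSSs at 28.4% of members, and at 54.15% the interval between the TSSs was shorter than the peak. The TSSs of members were a median of 288 bp apart, with quartiles at 213.5 and 386 bp and extremes of 1 and 904 bp. The summit lay a median of 59.5 bp from the midpoint between them, and 336 (43.5%) were within 50 bp of it. It was nearer to the minus-strand TSS in 386 members and nearer to the plus-strand TSS in 386, an equal split. By the annotation 71.4% of the summits were intergenic, 16.7% in a 5′ UTR and 10.9% in an intron.

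Measured from each gene, summits between the TSSs stood a median of 137 bp upstream of the minus-strand TSS (quartiles 92 and 217 bp) and 140 bp upstream of the plus-strand TSS (90 and 215 bp). At single-gene promoters with an upstream summit the median was 164 bp (quartiles 93 and 264 bp), so the spacing to 1 gene was of the same order in both kinds of promoter. The 119 summits that were not between the TSSs belonged to close pairs, with a median TSS distance of 88 bp against 304 bp for the rest. Of these, 67 lay on the side of the minus-strand gene and 52 on that of the plus-strand gene. Their median signal was 114.7, against 107.5 for summits between the TSSs.

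**Figure D3:**
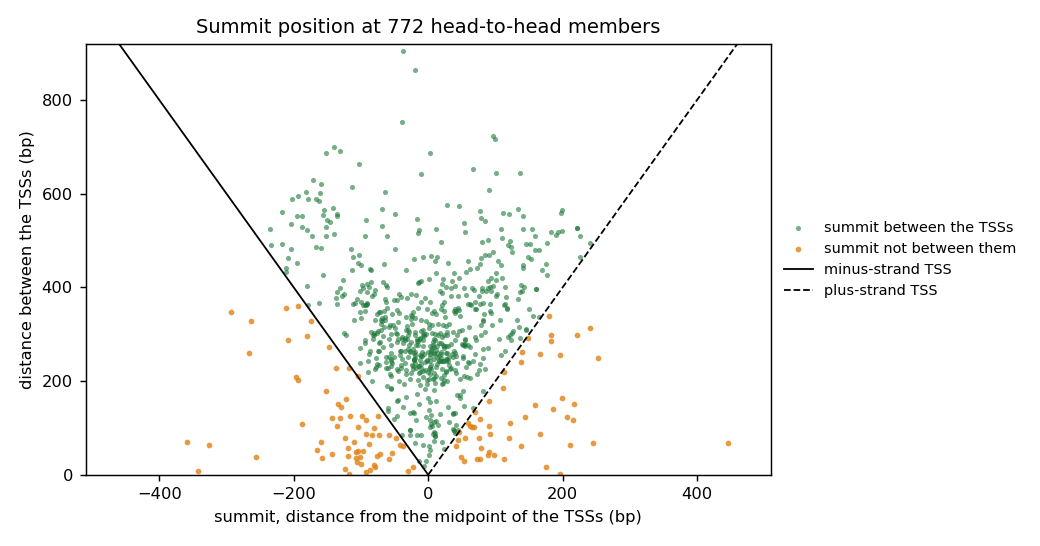
Each point is 1 of the 772 members, at the distance of its summit from the midpoint of the 2 TSSs (x axis, bp, negative towards the minus-strand gene) and the distance between the TSSs (y axis, bp); the lines mark the TSSs. Summits between the TSSs (653, green) crowd around the midpoint at distances of 201 to 300 bp, and the other 119 (orange) belong mostly to closer pairs.

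Pairs with TSSs 201 to 300 bp apart supplied the most members, 250, and in these the summit was most central, with 156 (62.4%) within 50 bp of the midpoint. They had a median signal of 136.0. Members with TSSs 1 to 50 bp apart were few (38), with a median of 157.7, and only 10.5% of their summits fell in the interval, which is narrower than most peaks. Those with TSSs 501 to 1000 bp apart (80) had a median of 84.0. At the short end stood Atg6/Pisd, 1 bp apart, with a signal of 64.5. Atg6 is the fly relative of Beclin 1 in autophagy and Pisd makes phosphatidylethanolamine. Next were dpa/didum, 2 bp apart (134.1), with the helicase subunit Mcm4 and myosin V, and CG3032/CG4593, 6 bp apart (227.1).

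The widest members were CG10283/grnd, at 904 bp with a signal of 57.8 (grnd encodes a receptor for the tumour necrosis factor Eiger), mRNA-cap/CG32599, at 864 bp with 67.6 (the capping enzyme of messenger RNA), and Glyat/Tg, at 753 bp with 91.7 (Tg is a transglutaminase). All 3 stood below the median of the members. The 500 bp limit fell in a thin part of the list. The 13 members whose farther TSS was 481 to 500 bp away had signals of 46.4 to 347.2 with a median of 82.6, and the 12 peaks just outside, at 501 to 520 bp, had 11.3 to 91.0 with a median of 71.3. The highest of those inside was CG14968/ZnT63C, 491 bp from its plus-strand TSS. Others near the limit were app/CG32100 (495 bp, signal 181.3), CG10435/Pbp95 (497 bp, 94.96) and Gnpat/CG5112 (498 bp, 78.2).

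The 772 members fell on 736 gene pairs and 1472 genes, since 35 pairs held more than 1 summit (71 summits, at most 3 at a pair). The secondary summits were usually faint. At CG12093 and the autophagy gene Atg2 the summits had signals of 322.5 and 5.41, at Sps1/conv 288.1 and 15.5, and at Herp/r2d2, where r2d2 encodes the partner of Dicer-2, 242.7 and 10.8. At imd/Dp1, with the immune adaptor gene imd, the weaker summit still had 70.7 beside 225.6, and Vha100-2/Vti1b, with a proton pump subunit and a SNARE, held 191.1, 106.9 and 10.6. In all, 32 members overlapped a stronger peak of the list, with a median of 11.2, and these include each of the 24 members with a signal under 20.

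Seen from the genome, genes at head-to-head promoters had a summit more often than unpaired genes. Of all 13968 protein-coding genes 18.7% had a summit within 500 bp of a TSS (15.5% in replicate 1's list and 12.1% in replicate 2's). The share was 34.3% of the 5052 genes in a head-to-head pair with TSSs at most 1000 bp apart (interval 33.0 to 35.6%), against 9.79% of the 8916 genes in none (9.19 to 10.4%). The replicates' own lists gave 28.9% against 7.95% in replicate 1 and 23.5% against 5.66% in replicate 2. Paired genes share a promoter, so 1 summit can count for both genes, which raises the share by construction. Among unpaired genes, the 855 with a TSS of another gene nearby on the same strand had 11.8% and the other 8061 had 9.58%. Gene expression was not measured here, so its part in the difference was not tested.

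Counted by pair, 801 of the 2667 pairs in the annotation had a summit within 500 bp of both TSSs (30.0%; 25.8% with replicate 1's list and 21.1% with replicate 2's). These pairs outnumber those above because a summit can lie at several overlapping pairs. The share depended on the spacing. It was 29.3% for TSSs 1 to 50 bp apart, 26.2% for 51 to 100 bp, 26.6% for 101 to 200 bp, 47.4% for 201 to 300 bp, 46.3% for 301 to 400 bp, 27.3% for 401 to 500 bp and 10.9% for 501 to 1000 bp. Pairs 201 to 400 bp apart were above the bins on either side, with Wilson intervals of 43.2 to 51.6% and 41.4 to 51.1% against 22.3 to 31.4% for 101 to 200 bp and 22.3 to 33.0% for 401 to 500 bp.

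Both replicates had the same shape. Replicate 1's list gave 19.3% at 101 to 200 bp, 42.4% at 201 to 300 bp, 40.3% at 301 to 400 bp and 24.7% at 401 to 500 bp. Replicate 2's list gave 16.5%, 35.8%, 33.0% and 18.4% in the same bins. The decline beyond 500 bp follows in part from the rule, since both TSSs must lie within 500 bp of the summit. When a summit near either TSS was counted, 28.7% of the pairs 501 to 1000 bp apart had one, while 201 to 300 bp (48.0%) and 301 to 400 bp (47.0%) stayed the highest. The median TSS distance was 274 bp in pairs with a summit and 330.5 bp in those without. By arm the share ran from 24.1% on X through 25.6% on 2R, 30.7% on 2L and 32.2% on 3L to 35.4% on 3R.

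**Figure D4:**
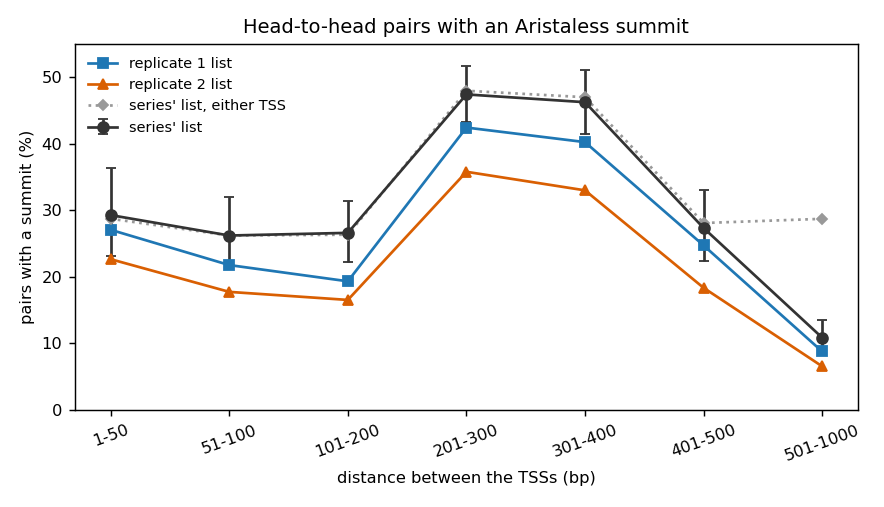
Share of annotated head-to-head pairs with a summit (y axis, percent) by the distance between the TSSs (x axis, bp), in the series' list with 95% Wilson intervals and in each replicate's list; the dotted line counts a summit near either TSS. The share is 47.4% at 201 to 300 bp and 46.3% at 301 to 400 bp, above 26.6% at 101 to 200 bp and 27.3% at 401 to 500 bp.

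The 801 pairs with a summit had a median signal of 115.2. Of the 1866 pairs without one, 928 (49.7%) held a peak of the series' ranked list, which also keeps peaks below the authors' threshold, with a median signal of 23.6. Pairs without a summit thus often held a ranked peak, mostly one below the threshold. The share of other promoters with such a peak was not taken, so no background stands beside this value.

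The members' promoters were richer in DRE and BEAF-32 letters than single-gene promoters with a summit. Within 100 bp of the summit the DRE lay at 94 of 772 members (12.2%; interval 10.1 to 14.7%), against 6.19% at the 970 summits upstream of a single gene (4.84 to 7.88%) and 0.322% at the 1864 with no promoter. It was at 11.5% of members against 4.69% of single-gene upstream summits in replicate 1's list, and at 11.3% against 5.74% in replicate 2's. Head-to-head promoters without a summit also held it often. At the midpoints of the pairs the DRE lay at 9.36% of those with a summit (7.54 to 11.6%) and 8.20% of those without (7.04 to 9.53%), intervals that overlap, and 7.01% of the windows of 200 bp before all coding TSSs held it.

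At the midpoints the DRE also followed the spacing of the pair, so the sets were compared again within bins of TSS distance, a choice made after the values were seen. In pairs 1 to 50 bp apart it lay at 13.2% of those with a summit (6.55 to 24.8%) and 27.3% of those without (20.4 to 35.6%). At 201 to 300 bp it lay at 11.7% with a summit (8.30 to 16.2%) and 6.67% without (4.31 to 10.2%), and at 401 to 500 bp at 1.37% and 1.03%. The direction thus turned between close and wider pairs, and the intervals overlapped in each of these bins.

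Among members the DRE went with weaker peaks. It lay at 6.22% of the strongest 25% of members, 13.0% of the second, 12.4% of the third and 17.1% of the weakest. Members with it had a median signal of 89.3, against 110.7 for those without. The replicates' values were 53.98 with and 68.5 without in replicate 1, and 44.2 with and 49.0 without in replicate 2. Of the 10 strongest members, only Atat/Shc had it near its summit.

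The BEAF-32 core CGATA lay at 48.2% of members (44.7 to 51.7%), 36.7% of single-gene upstream summits and 19.8% of summits with no promoter. Since each DRE contains this core, it was also counted without the DRE, and 278 members (36.0%) had it that way. At the midpoints of all pairs the core was about as frequent with a summit (40.8%) as without (41.5%), but bins of TSS distance differed. At 101 to 200 bp it was at 51.6% with a summit (41.7 to 61.4%) and 66.8% without (60.9 to 72.2%). At 1 to 50 bp it was at 49.1% with and 64.8% without. The share with a summit was also the lower at 301 to 400 bp and 501 to 1000 bp. It was the higher at 51 to 100 bp, 201 to 300 bp and 401 to 500 bp. The intervals overlapped in each bin. Of all 6-base words found at 5% of members or more, CGATAG had one of the largest ratios to single-gene promoters, at 26.7% against 15.3%. Against midpoints of pairs without a summit (15.8% for this word) the largest ratio was that of CATCCC, at 9.20% of members against 3.75%. These words head a ranking of all words and their ratios were not tested.

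The GAGA factor site GAGAG went the other way, at 12.8% of members (10.6 to 15.4%) against 24.2% of single-gene upstream summits (21.6 to 27.0%) and 21.9% of those with no promoter. At pair midpoints it was at 14.5% with a summit and 14.6% without. With TSSs 51 to 100 bp apart it was at 29.2% of midpoints with a summit (19.6 to 41.2%) and 9.84% without (6.31 to 15.0%), and with TSSs 401 to 500 bp apart at 5.48% with (2.15 to 13.3%) and 13.4% without (9.31 to 18.9%). In each range of TSS distance other than 51 to 100 bp the intervals overlapped. The TATA box letters TATAAA were at 42.8% of members and 36.6% of single-gene upstream summits, and at 43.3% of midpoints with a summit (39.9 to 46.8%) and 38.3% without (36.1 to 40.5%). The E-box CAGCTG was at 11.4% of members and 7.94% of single-gene upstream summits, and Motif 1 at 2.33% of members and 2.47% of single-gene upstream summits. At midpoints the E-box was at 11.99% with a summit and 13.02% without, and 11.7% of the windows of 200 bp before all coding TSSs held it. At midpoints Motif 1 was at 2.996% with a summit (2.02 to 4.42%) and 4.93% without (4.04 to 6.01%).

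The homeodomain core TAATTA, the sequence class that Aristaless itself binds, was at 180 members (23.3%; 20.5 to 26.4%). It was at 16.0% of single-gene upstream summits (13.8 to 18.4%) and 16.5% of summits with no promoter (14.9 to 18.2%). It also differed between pairs, at 28.1% of midpoints with a summit (25.1 to 31.3%) against 19.5% of those without (17.8 to 21.4%). In windows 1 kb to either side of the members it was at 5.89%. The TATA box letters were also rarer there, at 14.6% against 42.8% of members. The replicates' own lists gave 24.4% of members against 17.4% of single-gene upstream summits in replicate 1 and 22.4% against 15.3% in replicate 2. The median distance of the homeodomain core from the summit was 40.5 bp, beside 37.0 bp for the TATA box and 45.5 bp for the BEAF-32 core. Of the 180 members with the homeodomain core, 157 had it without a DRE.

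The same direction held within each bin of TSS distance from 201 bp up, and varied in closer pairs. At 201 to 300 bp the core was at 31.1% of midpoints with a summit (25.8 to 37.0%) and 21.4% of those without (17.0 to 26.5%). At 301 to 400 bp the values were 38.9% with a summit (32.2 to 46.1%) and 26.5% without (21.1 to 32.8%), and at 401 to 500 bp 37.0% with and 23.2% without. At 101 to 200 bp they were 7.37% with a summit and 8.78% without, at 1 to 50 bp 9.43% with and 12.5% without, and at 51 to 100 bp 18.5% with and 7.10% without. The intervals with and without a summit overlapped in each bin of TSS distance, at 201 to 300 bp and 301 to 400 bp only at their ends. At 401 to 500 bp they were 26.8 to 48.45% with a summit and 17.8 to 29.6% without. The pairs with a summit were slightly poorer in GC within the wider bins, at a median of 30.8% with and 31.8% without at 201 to 300 bp, and 27.4% with and 29.4% without at 301 to 400 bp.

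The median GC content around the summit was 33.3% at members, 34.8% at single-gene upstream summits, 41.04% at single-gene downstream summits, 35.3% at summits with no promoter and 34.3% at midpoints of pairs without a summit. The letters TAATTA hold no G or C, and the part of base composition in their share was not tested. Across these parts of the members by signal the core showed no order, with 24.4% in the strongest and 21.2% in the weakest. The longer palindromes known for paired-class dimers, TAAT and ATTA separated by 2 or 3 bases, lay at 4.15% and 4.02% of members, against 3.40% and 2.99% of single-gene upstream summits. Their intervals overlapped. At pair midpoints the form with 3 bases was at 4.87% with a summit (3.58 to 6.59%) and 2.73% without (2.08 to 3.58%). The form with 2 bases was at 3.37% with and 2.79% without.

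**Figure D5:**
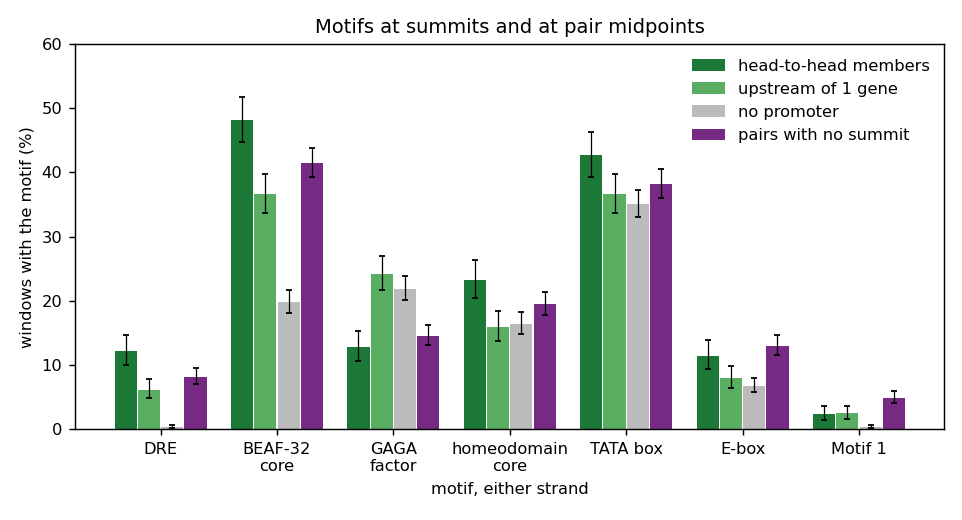
Share of windows with each motif on either strand (y axis, percent; motifs on the x axis) within 100 bp of the summit for members, for summits upstream of a single gene and for summits with no promoter, and within 100 bp of the midpoint of head-to-head pairs with no summit; error bars are 95% Wilson intervals. The DRE is at 12.2% of members and 6.19% of single-gene upstream summits, and the GAGA factor site at 12.8% and 24.2%.

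Genes of basic cell machinery were counted by list, and most of these lists lay near the share of all paired genes. No intervals were taken for the shares of single lists. Of the 5052 genes in a pair, 30.1% had a summit at their shared promoter, and each gene list below is read against that share. Of 73 genes of the mitochondrial ribosome, 58 are in a head-to-head pair and 25 of these had a member summit (43.1%), with a median signal of 95.1. Replicate 1's list held 24 and replicate 2's 15. None of the other 15, which are unpaired, had a promoter summit, and 0 of 15 allows a share of up to 20% by counting error. Over all unpaired genes the share was 9.79%. The strongest are mRpS10, mRpS23 and mRpL23, given above.

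Cytoplasmic ribosomal protein genes had the highest share of any list, 25 of 53 paired genes (47.2%), and their unpaired genes were also often bound, 18 of 35 (51.4%) against 9.79% of all unpaired genes. RpL32 shares its promoter with CG7943, with signals of 245.2 in replicate 1 and 158.6 in replicate 2. RpS27 stands beside Nup37, a nuclear pore gene, with 190.5 in replicate 1 and 173.1 in replicate 2. RpL7 and Ripalpha had 214.4 in replicate 1 and 124.4 in replicate 2.

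Vesicle transport genes came next, with 30 of 65 paired genes (46.2%) and 6 of 42 unpaired ones (14.3%, against 9.79% of all unpaired genes). The strongest were Vps33B/Fur1, a tethering subunit beside the furin protease gene, with 218.0 and 128.8 in replicates 1 and 2, and Sec6/Atg7, an exocyst subunit beside an autophagy enzyme, with 141.8 and 111.1. Sec61alpha, the channel of the endoplasmic reticulum, beside Daxx had 130.2 and 97.9. In this list alone, leaving aside genes known only by number, both genes of a bound pair were members of the list. Cog3 and Sec5, a Golgi and an exocyst tether, had 100.7 in replicate 1's list and 48.1 in replicate 2's, and Exo84/Vps2 had 43.4 in replicate 1's list and no summit in replicate 2's.

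The lists of the other machines lay nearer the 30.1% of all paired genes. RNA polymerase, general transcription and Mediator genes had 18 of 56 (32.1%), nuclear oxidative phosphorylation genes 14 of 44 (31.8%), proteasome subunits 8 of 26 (30.8%) and aminoacyl-tRNA synthetases 8 of 22 (36.4%). Splicing factors had 8 of 30 (26.7%), translation initiation factors 6 of 21 (28.6%), DNA replication and cell cycle genes 9 of 38 (23.7%) and mitochondrial import genes 2 of 5. The median signal of members was highest for the RNA polymerase and Mediator list, at 189.3, and the splicing list, at 165.1, against 113.6 over all paired genes with a summit.

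Among transcription genes, MED27 beside elm stood at 216.7 in replicate 1 and 131.7 in replicate 2. Polr2H, a subunit shared by the RNA polymerases, beside CG11247 had 150.3 in replicate 1 and 176.4 in replicate 2, so here replicate 2 was higher. MED30 beside Rev1, a translesion polymerase gene, had 146.2 in replicate 1 and 124.7 in replicate 2. In the respiratory chain, ND-ASHI beside the fumarase gene Fum1 had 248.3 and 143.2 in replicates 1 and 2, ND-24 beside corolla 144.1 and 117.1, and ND-MWFE beside TppII 131.9 and 124.1. These are subunits of complex I.

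Of the splicing genes, SNRPG, a core small ribonucleoprotein, beside mthl1 had 194.7 in replicate 1 and 111.5 in replicate 2. U2af50 beside PIG-Q had 143.5 in replicate 1 and no matched summit in replicate 2's ranked list, and Sf3b6 beside Tnpo had 108.7 and 94.6 in replicates 1 and 2. Of the replication and cell cycle genes, PolD2, a DNA polymerase delta subunit, beside CG13933 had 213.9 and 147.2 in replicates 1 and 2. Cdc16, of the anaphase-promoting complex, beside orb had 100.7 and 93.8, and Mcm2, of the replicative helicase, beside RPA1 had 104.2 and 74.6. The partner orb encodes an RNA-binding protein of the germ line, and RPA1 is the large subunit of the protein that coats single-stranded DNA.

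The synthetase gene SerRS, 8 bp from CG17260, had 235.0 in replicate 1 and 144.4 in replicate 2, ThrRS beside Patsas had 134.9 and 90.6, and IleRS beside Hem, of the SCAR actin regulatory complex, 124.2 and 73.3. Of the proteasome genes, Rpn3 beside l(2)37Bb was at 79.6 in replicate 1 and 74.8 in replicate 2, Rpn6 beside ave at 66.6 and 88.0, and Rpn13 beside CtsL1 at 95.4 and 59.0. Of the initiation factors, eIF1 beside RpL28 had 62.6 and 54.3 in replicates 1 and 2, and eIF3h beside senju had 60.96 in replicate 1 and no matched summit in replicate 2. eIF3m beside CG8323 had 41.9 in replicate 1 and 42.3 in replicate 2. Tom7, of the mitochondrial import channel, beside CG33199 had 57.4 in replicate 1 and 35.4 in replicate 2.

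No chemoreceptor or cuticle protein gene had a summit at a head-to-head promoter. Of 179 chemoreceptor genes, for smell and taste, 26 are in such a pair, and 0 of 26 allows a share of up to 11.5% by counting error. Of 95 cuticle protein genes 5 are paired, and 0 of 5 allows up to 60%, so little can be said of these. The absence was not limited to head-to-head promoters. None of the 153 unpaired chemoreceptor genes had a promoter summit, nor did any of the 90 unpaired cuticle protein genes. These counts allow shares of up to 1.96% and 3.33%, against 9.79% of all unpaired genes. Genes known only by a CG number made up 1757 of the paired genes, and 467 of them had a summit (26.6%), below the 30.1% of all paired genes. Among them were CG7601, CG5611 and CG8320 of the strongest members.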

How the data were processed

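Both samples are ChIP-seq libraries of 1 group, numbered as biological replicates 1 and 2 per the labels. Replicate numbers do not say whether embryo collections were separate. The authors deposited 8 peak lists on dm6, per the notes deposited with the samples: a thresholded and a ranked list for each replicate, and a thresholded, a conservative and 2 ranked lists made from both. Which aligner, peak caller, versions and filters were used is not stated there. Each list holds the authors' signal value of a peak, its deposited −log10 q value and a score that rescales the IDR (irreproducible discovery rate, a measure of disagreement between replicates) to at most 1000. The deposited score is at that maximum for 93.4% of the members, so it ranked nothing. All peaks of the thresholded list have a global IDR of at most 0.01, by the authors' score for it (−log10) in the ranked list. No read counts were used, so the depth of each library is unknown and no interval can be given for a signal.

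Summits were set against TSSs of protein-coding transcripts (Ensembl release 115, BDGP6.54) and the release 6 genome, whose coordinates equal dm6. Where several pairs of TSSs qualified, the pair with the smallest summed distance was taken. Other summits were classed as near the TSSs of 1 gene (upstream or downstream), near those of several genes in another arrangement (46), or near none. Replicate lists were overlapped at 1 bp or more, and a replicate's signal was that of its nearest ranked summit within 100 bp. Motifs were matched exactly on both strands within 100 bp of the summit. The 14 gene lists are symbol patterns. With 1 group and peaks as the unit there is no test, and values of both replicates and 95% Wilson intervals are given instead. Where no gene of a list had a summit, the share allowed by counting error is 3 divided by the number of genes. That bound is not a Wilson interval and is coarse for short lists.

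Members, gene lists and motifs were chosen with earlier results of these data known, and 2 list patterns were corrected after values were seen. Genes were named by a rule: both genes of the 10 strongest members, up to 3 per gene list, the 3 pairs with the smallest and the 3 with the largest TSS distance, up to 5 pairs with several summits, the 5 members whose replicates differed most in the strongest 25%, and those nearest the 500 bp limit. A member near the limit is not reported here. Summit classes, pair finding and motif search were tested on simulated data. The 8 main results (number of members, their share of promoter summits, signal ratio, share in both replicates, share of pairs with a summit, share between the TSSs, DRE and homeodomain core shares) were repeated with the conservative list, 1 replicate's list alone, a global IDR of 0.001, a q of 0.05, TSS windows of 250 and 1000 bp, and 1 TSS per gene. The number of members was also taken with 1 summit per pair, the share in both replicates with an overlap of 50%, and the motif shares with windows of 50 and 250 bp. Other values were not repeated. Tools were Python 3.11.15, pandas 2.3.3, numpy 2.4.6, matplotlib 3.10.9 and scipy 1.17.1.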

Additional observations from a re-analysis of the deposited data

Results flagged for a closer look

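The series' ranked list holds peaks past the authors' limit, a global IDR of at most 0.01, that are not in the thresholded list used here. There are 100 of them on the 7 chromosome arms, among 3922 ranked peaks past the limit, and 57 lie on 3R. At head-to-head promoters there are 11, all on 3R, with signals of 65.1 to 952.5 and a median of 110.3. Each has a summit in both replicates' ranked lists. They are not among the members. In the report the pairs of these 11 count as pairs without a summit, and their peaks are among the ranked peaks found at such pairs.

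The strongest lies between eIF4EHP, a cap-binding repressor of translation, and CG18428, with a signal of 952.5 in the series' ranked list, 587.0 in replicate 1 and 358.7 in replicate 2. That is between the tenth member, mRpL23/CG9004 (1035.9), and the eleventh, CG1275/Elp5 (926.5). The next lies between Sirt6, a sirtuin gene, and pont, a chromatin remodelling helicase gene, with 393.5, 250.9 in replicate 1 and 151.5 in replicate 2. The other 9 are under 200. The reason was not tested.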

How the results depend on the processing

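Each of the 8 results moved under some setting, the signal ratio and the DRE share under the most. A result counted as moved when it shifted by more than the SD between the lists of the 2 replicates, or for the number of members by more than 1.5 times. That SD rests on 2 values and differs between results. It was 0.159 percentage points for the DRE share and 1.43 for the homeodomain core share. A smaller shift was thus enough to count the DRE share as moved. The lists taken 1 replicate at a time gave 532 to 652 members (772 in the series' list), 40.2 to 44.3% of promoter summits (39.4%), a signal ratio of 1.01 to 1.06 (1.14), 21.1 to 25.8% of pairs with a summit (30.0%), 83.9 to 85.7% of summits between the TSSs (84.6%), a DRE at 11.3 to 11.5% (12.2%) and a homeodomain core at 22.4 to 24.4% (23.3%). The share of members found in the other replicate's list was then 74.1 to 89.8%, which asks for 1 overlap and not 2, against 62.0%.

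With TSSs within 250 bp there were 510 members, 31.6% of promoter summits, at a signal ratio of 1.32 and a DRE share of 12.4%. With 1000 bp the share between the TSSs was 82.5%, the DRE share 11.5% and the homeodomain core share 21.8%. The conservative list gave a signal ratio of 1.09 and a DRE share of 10.8%. At a global IDR of 0.001 the ratio was 1.06, the share in both replicates 80.6%, the share of pairs with a summit 23.3% and the DRE share 10.3%. At a q of 0.05 the ratio was 1.09, the share between the TSSs 86.3% and the DRE share 10.9%. With 1 TSS per gene the ratio was 1.22 and the DRE share 12.9%. Motif windows of 50 and 250 bp gave 5.05 and 23.3% for the DRE and 13.1 and 41.7% for the homeodomain core, as narrower and wider windows must.

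The ratio was above 1 under each of these. Leaving out peaks that overlap a stronger one (740 members), and adding the ranked peaks past the limit (783 members), both chosen after seeing the data, moved none of the 8 results. The cause of the other shifts was not tested. No paired analysis was possible because there is 1 group only. Peaks are not independent replicates, the depth is unknown, and with 2 replicates no difference between peak classes could be tested.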
